A study of Mus musculus with 2 samples.

Results

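Nuclear receptors are transcription factors that bind small lipophilic ligands, and in the liver they link bile acids, oxysterols, fatty acids, retinoids, thyroid hormone and steroids to metabolic gene expression. Described here are 35 genes of this system in mouse liver, 30 receptor genes and 5 coregulator genes, chosen by symbol from the 53241 distinct symbols of the deposited tables. Total RNA from the liver was sequenced as stranded mRNA libraries, 1 for control and 1 for iFIRKO mice. iFIRKO males carried the genotype Adipoq-CreERT2; Insr flox/flox, in which a tamoxifen-activated Cre recombinase under the adiponectin promoter removes *Insr*, the insulin receptor gene, from adipocytes. The labels give the controls as WT, whereas the study's methods describe them as IR flox/flox males without the Cre. Males of both groups were 7 weeks old, received tamoxifen at 100 mg/kg on 5 successive days, and were sampled on day 3 after the final dose. Tamoxifen is itself a ligand of the oestrogen receptor, and both libraries come from treated mice. With 1 library in each group, no difference below has a replicate check, and whether a library holds 1 mouse or a pool is not stated.

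A receptor of this family reads a short DNA response element through a pair of zinc fingers and changes its partner proteins when ligand binds. Many members pair with a retinoid X receptor (RXR), steroid receptors mostly pair with themselves, and orphan receptors have no agreed natural ligand or act without one. Coactivators such as the NCOA proteins dock on the ligand-bound receptor through leucine-rich NR boxes, and the corepressor NCOR1 docks on receptors that lack an activating ligand.

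The coding sequence shows how the family is built. In the GENCODE M21 transcripts, the stretch of 24 bases that encodes the end of the first zinc finger was found in 30 of 30 receptors and in 0 of 5 coregulators. It carries the P-box, the 3 residues that choose the DNA half-site, whose codons are in capitals below. The lines show 1 receptor of each P-box type and, of the commonest type, *Pparg*, *Rarg* and *Rxra*. They are written 5′ to 3′ as coding strand.
Pparg: tgtGAAGGAtgcaagGGTtttttc
Rarg: tgtGAAGGCtgcaagGGCttcttc
Rxra: tgtGAGGGCtgcaagGGCttcttc
Nr2f6: tgcGAGGGCtgcaagAGTttcttc
Hnf4a: tgtGACGGCtgcaagGGGttcttc
Esrra: tgtGAGGCCtgcaaaGCCttcttc
Nr5a2: tgcGAAAGCtgcaagGGTtttttt
Esr1: tgcGAAGGCtgcaagGCTttcttt
Nr3c2: tgcGGCAGCtgcaaaGTCttcttc
Of the 30 receptors, 19 encode the same P-box residues as *Pparg*, *Rarg* and *Rxra*. The 3 NR2F genes share a second type, and the 2 HNF4 genes, the 2 oestrogen-related receptor genes and the 2 NR3C genes each share one of their own, while *Esr1* and *Nr5a2* stand alone. The coregulators lack the finger but encode matches to the NR box pattern. There were 10 in *Nrip1*, 7 in *Ncoa1*, 6 in *Ncoa3*, 4 in *Ncoa2* and 1 in *Ncor1*. Such matches are not particular to coregulators, since 15 of the 30 receptors had at least 1 and *Esr1* and *Nr3c1* had 2. The counts are not scaled to protein length, which was 2454 residues for *Ncor1*. Whether a match docks on a receptor was not tested.

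The deposited value of a gene is the log2 of a normalized read count, which was returned to the linear scale and is called normalized reads here. Division by the worth of 1 read pair gave an estimated depth of 21138484 read pairs for control and 20652740 for iFIRKO. The minimum for a comparison was a CPM of 1 (41.8 normalized reads) in either library, which 13400 genes reached. Log2 fold changes divide iFIRKO by control after 4.18 normalized reads were added to both as a pseudocount, and on this scale a gene is called higher or lower past 1.5-fold, the limit of the study. Values written as x-fold, and the intervals, are of the plain ratio. At the 95% level, exact Clopper-Pearson limits were set on estimated read pairs, so they hold counting error alone and set 1 library against another rather than genotype against genotype. The level of *Insr* in liver RNA is no check of its loss from adipocytes. It had 4246 normalized reads in the control and 3692 in the iFIRKO liver. The tissue label held against its markers, since *Alb* alone had a CPM of 99712 in control and 94376 in iFIRKO.

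Cell type markers were not level between the libraries. All 7 Kupffer cell markers were lower in value in iFIRKO, 4 of them past 1.5-fold, and their sum went from 29295 to 19166 normalized reads. All 7 sinusoidal endothelial markers were lower in value, 2 past 1.5-fold (*Kdr* and *Pecam1*), with a sum of 11599 in control and 8576 in iFIRKO. The lymphocyte and neutrophil markers summed to 843 in control and 309 in iFIRKO, and 4 reached the minimum and were called lower. Of these, *Cd79a* and *S100a8* reached it in control alone, which leaves 2 lower of 2 with the minimum in both libraries. The stellate cell sum was 12488 and 13419, and the cholangiocyte sum 2347 and 2026. All 5 cholangiocyte markers were lower in value, but 4 of their intervals included 0. The hepatocyte markers held 12.5% and 11.9% of all normalized reads, most of them from *Alb*. By value, 6 of these 8 were lower, with intervals below 0, and *Apoa1* was the 1 called lower. The 4 adipocyte markers were at or near 0, with *Lep* listed at 0 in both libraries and *Adipoq*, *Plin1* and *Cfd* at 0 in control and at 1, 1 and 4 read pairs in iFIRKO. In whole tissue, fewer cells of a type and less RNA per cell cannot be told apart. The part of these differences in the receptor values below was not tested.

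**Figure D1:**
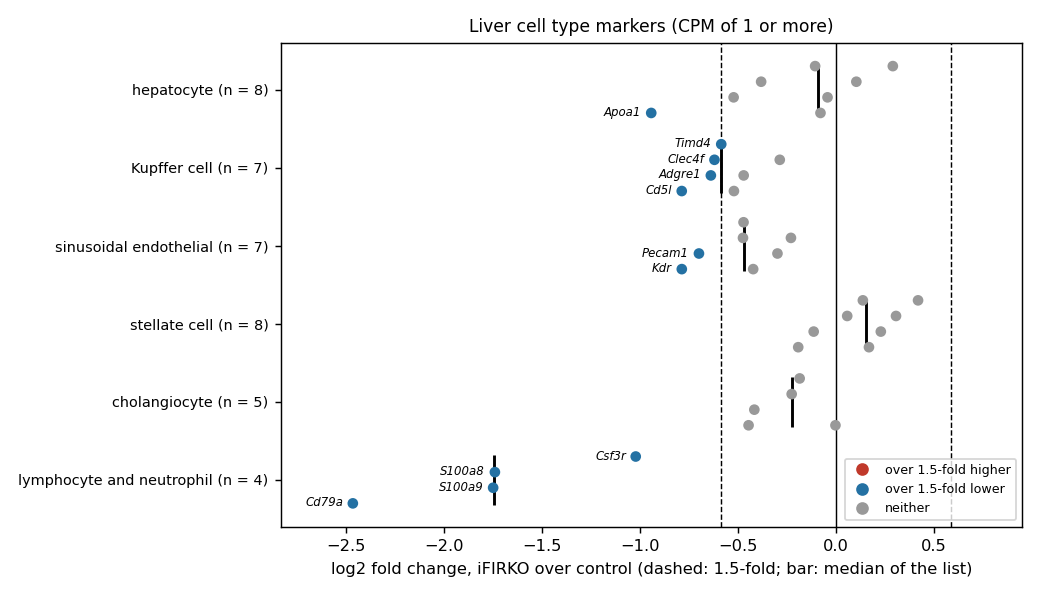
log2 fold change (iFIRKO over control, horizontal axis) of cell type markers at a CPM of 1 or more, 1 point per gene and 1 row per list, with the list median as a bar and the 1.5-fold limits dashed. All Kupffer cell, endothelial, lymphocyte and neutrophil points and 6 of 8 hepatocyte points lie left of 0, while 6 of 8 stellate cell points lie right of it. No adipocyte marker reached the minimum.

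The receptor genes covered a wide range of levels, and their order was close to the same in both livers. On the scale of normalized reads per kilobase of annotated exon, which allows genes to be compared, *Hnf4a* stood first at 6114 in control and 5939 in iFIRKO. *Hnf4a* encodes a receptor that maintains hepatocyte gene expression. *Rxra*, the main RXR subunit of liver, followed at 2728 and 2636 reads per kilobase, then *Nr1i2* (1619 and 1598), *Nr1h3* (1529 and 1522), *Nr2f6* (1361 and 1399) and *Nr1i3* (1226 and 1205). The first 9 places, which *Nr1h2*, *Nr3c1* and *Nr5a2* complete, were held by the same genes in the same order in both libraries. At the lower end, *Esrrg* had 25.2 reads per kilobase in control and 16.8 in iFIRKO, and *Hnf4g*, *Nr2f1* and *Vdr* lay under the minimum. Only 2 of the 35 genes moved by more than 3 places, *Pparg* from 21st to 13th and *Rarg* from 19th to 25th. The lengths merge all annotated exons, so genes with many isoforms are placed too low, and the order of near neighbours has no replicate error behind it.

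**Figure D2:**
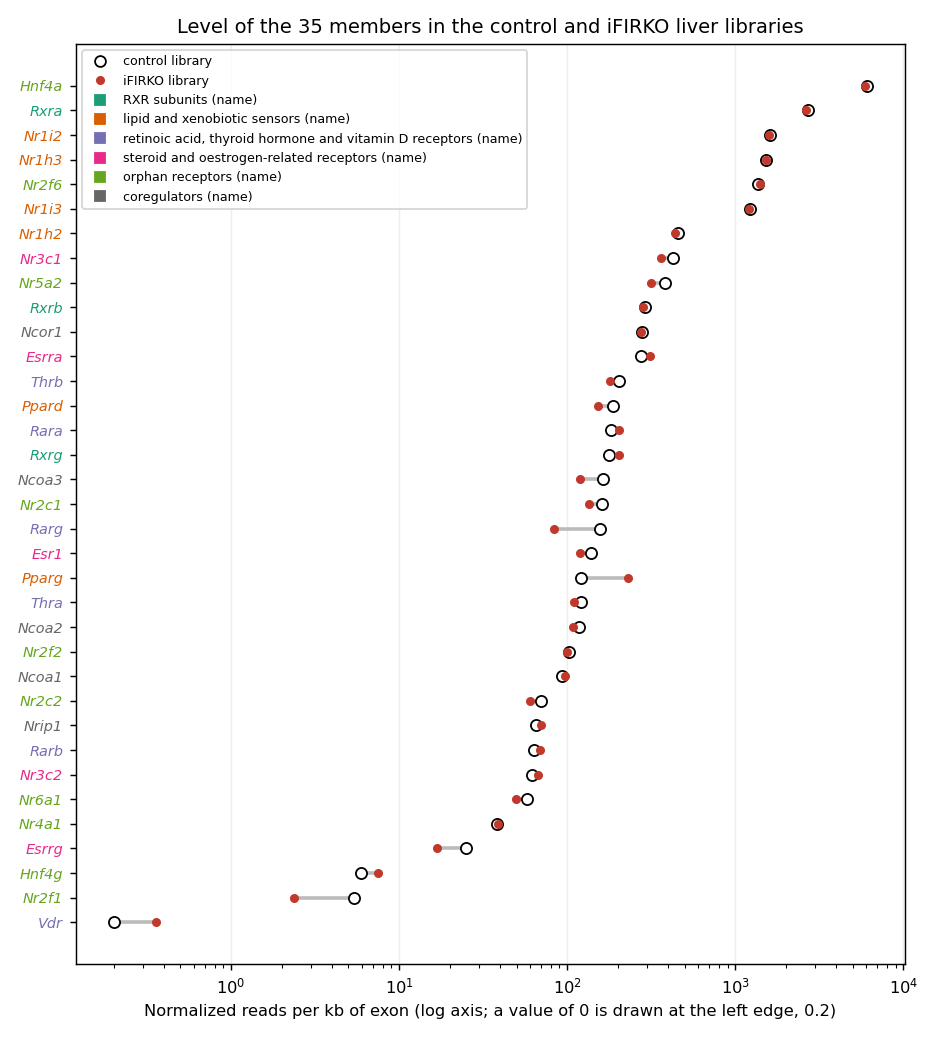
Level of each of the 35 genes in normalized reads per kilobase of exon (horizontal log axis) in the control library (open circles) and the iFIRKO library (red points), ordered by the control level, with names coloured by role. Open and red marks overlap for most genes, while *Pparg* lies right and *Rarg* left of its control mark. *Vdr*, at 0 in control, is drawn at the left edge.

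Between the libraries most of these genes were close to level. Of the 32 at or over the minimum, 1 was called higher, *Pparg*, and 1 lower, *Rarg*, which is 3.13% each way. Over all 13400 genes compared, 4.46% were called higher and 7.28% lower. The median log2 fold change of the 32 was -0.045, beside 0.0075 over all genes, and 28 of the 32 lay within 0.3 of 0 on the log2 scale, as did 69.0% of all genes. At a CPM of 10 or more the counts were 26 of 29 members and 78.6% of all genes. *Pparg*, *Rarg*, *Esrrg* and *Ncoa3* were the 4 outside. Counting intervals narrow with the number of reads, so they were counted among genes at a CPM of 10 or more. There, 11 of 29 members had an interval wholly below 0 against 22.7% of such genes, and 2 of 29 had one wholly above against 26.2%. *Pparg* and *Rarg* were again the 1 higher and the 1 lower of these 29, where 2.42% of all genes at that level were called higher and 3.54% lower.

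**Figure D3:**
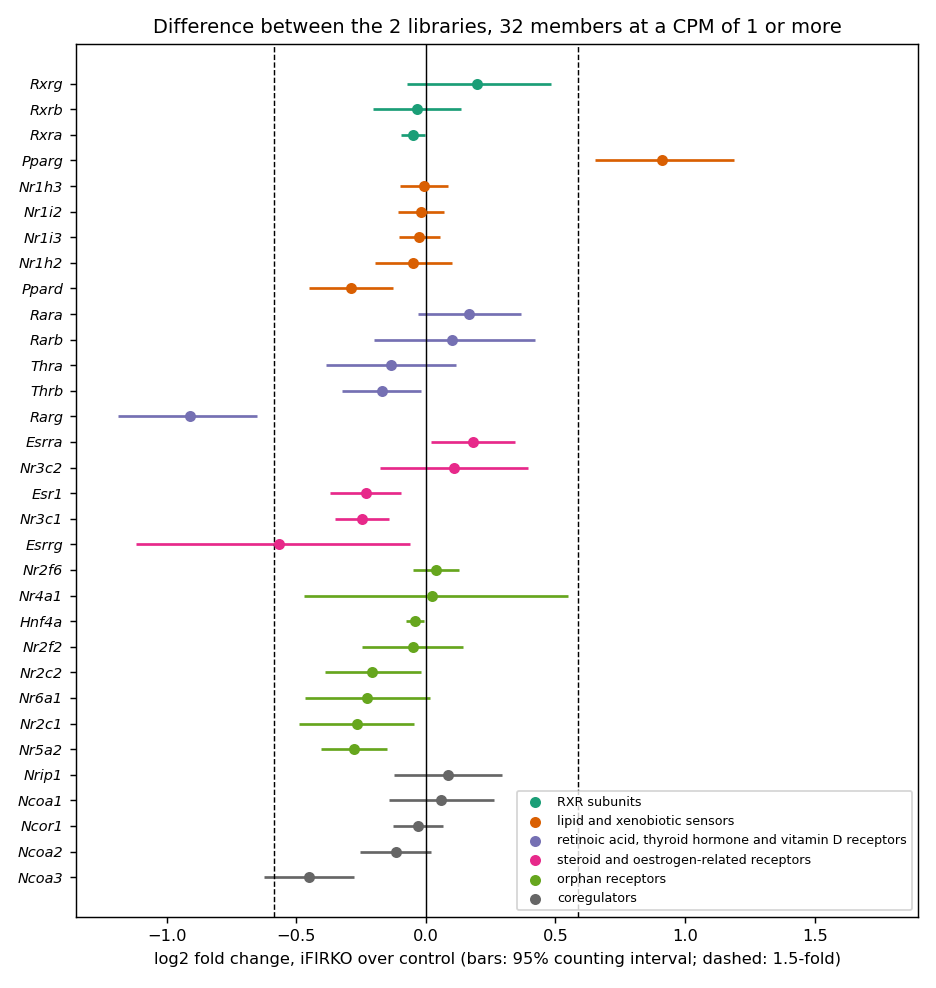
log2 fold change (iFIRKO over control) of the 32 members at a CPM of 1 or more, grouped and coloured by role, with 95% counting intervals as bars and the 1.5-fold limits dashed. *Pparg* at 0.91 and *Rarg* at -0.91 are the points past the limits, and *Esrrg* at -0.57 lies just inside the lower one.

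The 3 RXR subunits are shared partners of many, but not all, of the receptors that follow. *Rxra* had 14902 normalized reads in the control and 14396 in the iFIRKO liver, or -0.050 on the log2 scale. *Rxrb* had 1154 and 1127, and *Rxrg* 406 and 466. None was called, and the 3 together had a log2 ratio of -0.042 with an interval from -0.086 to 0.0028. Per kilobase, *Rxra* made up 85.4% of RXR reads in control and 84.4% in iFIRKO.

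Among the sensors of lipids and foreign compounds, *Pparg* was higher and the other 5 were not called. *Pparg* encodes PPARγ, the receptor that drives adipocyte differentiation and, in fatty liver, lipid storage in hepatocytes. It lies on chromosome 6 of GRCm38 from 115360951 to 115490399 on the forward strand. The control library held 358 normalized reads and the iFIRKO library 677, which is 1.89-fold higher, or 0.91 on the log2 scale (interval 0.65 to 1.19). Its rows do not separate the γ1 and γ2 isoforms. *Ppard*, the more widely expressed relative that responds to fatty acids, was lower in value at 1410 in control and 1154 in iFIRKO, that is, -0.29 on the log2 scale (interval -0.45 to -0.13). *Pparg* thus went from 39.3% to 59.9% of the reads per kilobase of these 2 genes. *Ppara*, which is not a member and was named after its value was seen, had 1908 and 2066. That share leaves *Ppara* out, although *Ppara* exceeded *Pparg* per kilobase in both libraries. *Ppara* had 498 and 538 reads per kilobase, and *Pparg* 121 and 229. The adipocyte markers named above stayed at or near 0 in both libraries, and *Fabp4*, which adipocytes, macrophages and other cells express, had 470 and 469. Which cells held the *Pparg* reads was not tested.

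The oxysterol and xenobiotic receptors differed little between the libraries. *Nr1h3*, which encodes LXRα, a sensor of oxysterols, had 3844 normalized reads in the control and 3827 in the iFIRKO liver. Its relative *Nr1h2*, LXRβ, had 1529 and 1478. *Nr1i2*, the pregnane X receptor (PXR), had 4134 and 4079, and *Nr1i3*, the constitutive androstane receptor (CAR), had 5412 and 5318. Their log2 fold changes lay between -0.048 and -0.0067, and each interval included 0. Of the annotated exon bases of *Nr1i3*, 74.9% overlap *Tomm40l* on the other strand, which had 467 and 674. Whether reads were assigned by strand is not stated, so the *Nr1i3* value may hold reads of *Tomm40l*.

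Of the receptors for retinoic acid, thyroid hormone and vitamin D, *Rarg* was lower and the 4 others at or over the minimum were not called. *Rarg* encodes the retinoic acid receptor RARγ and lies on the reverse strand of chromosome 15 from 102234938 to 102257517. It had 673 normalized reads in the control and 356 in the iFIRKO liver, which is 1.89-fold lower, or -0.91 on the log2 scale (interval -1.19 to -0.65). *Rara*, the RARα gene, had 792 and 889, and *Rarb*, the RARβ gene, had 337 and 362, with log2 fold changes of 0.17 and 0.10 and intervals that included 0. The interval of *Rarg* thus lay apart from those of both relatives. Per kilobase, *Rarg* fell from 39.2% to 23.5% of the reads of the 3 RAR genes, and *Rara* went from 45.0% to 57.2%. Their summed log2 ratio was -0.17, with an interval from -0.30 to -0.025. No exon of *Rarg* overlaps another annotated gene, whereas 38.4% of the exon bases of *Rarb* overlap genes of the other strand, among them *Top2b* (1994 and 1903).

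*Thrb*, which encodes the thyroid hormone receptor β that prevails in liver, had 1508 normalized reads in the control and 1340 in the iFIRKO liver, or -0.17 on the log2 scale. *Thra*, the α receptor, had 555 and 505, or -0.14 on the log2 scale. Neither was called, and *Thrb* kept 62.9% and 62.3% of the reads per kilobase of the pair. Of the exon bases of *Thra*, 5.70% overlap *Nr1d1* on the other strand. *Vdr*, the vitamin D receptor gene, was listed at 0 in control and had 1 read pair in iFIRKO. A count of 0 allows up to 5.96 normalized reads in the control library, so *Vdr* was not measurable at this depth.

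Steroid and oestrogen-related receptors were not called, and 4 of the 5 had intervals that excluded 0, 1 above and 3 below. Such intervals were common, at 26.2% above and 22.7% below among all genes at a CPM of 10 or more. *Esrrg* lay under that level. *Nr3c1*, the glucocorticoid receptor gene, had 3299 normalized reads in the control and 2778 in the iFIRKO liver, that is, -0.25 on the log2 scale (interval -0.35 to -0.14). *Esr1*, the oestrogen receptor α gene, had 1907 and 1626, that is, -0.23 on the log2 scale (interval -0.37 to -0.095). Both were lower in value by less than the 1.5-fold limit. *Nr3c2*, the mineralocorticoid receptor gene, had 401 and 433, with an interval that included 0. *Esrra* encodes an orphan receptor that acts on mitochondrial genes together with PGC-1 coactivators. It was slightly higher in value, at 1200 in control and 1360 in iFIRKO, that is, 0.18 on the log2 scale (interval 0.021 to 0.34). Its relative *Esrrg* went the other way from few reads, with 156 and 104, that is, -0.57 on the log2 scale (interval -1.12 to -0.061). *Esrrg* lay just inside the 1.5-fold limit and passed it without the pseudocount, at -0.59.

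Of the 10 orphan receptors, 8 reached the minimum and 0 were called. *Hnf4a* had 29516 normalized reads in the control and 28673 in the iFIRKO liver, or -0.042 on the log2 scale. *Nr5a2*, the gene of LRH-1, a regulator of bile acid and cholesterol genes, had 2269 and 1872, that is, -0.28 on the log2 scale (interval -0.40 to -0.15). The testicular receptors *Nr2c1* (744 and 619) and *Nr2c2* (1038 and 899) were also lower in value, with log2 fold changes of -0.26 and -0.21 and intervals below 0. Of the exon bases of *Nr2c2*, 31.2% overlap other-strand genes, among them *Mrps25* (509 and 510.4). *Nr6a1*, the germ cell nuclear factor gene, had 626 and 535, with an interval that included 0. Per kilobase, *Nr2f6* made up 92.6% and 93.2% of the reads of the 3 COUP-TF genes. *Nr2f6* had 4061 and 4173 normalized reads, and 54.4% of its exon bases overlap *Ocel1* on the other strand, which had only 217 and 193. *Nr2f2* had 886 and 856. *Nr2f1* lay under the minimum with 27.3 and 12.1, from 14 and 6 read pairs, and its interval from -2.87 to 0.27 included 0. *Nr4a1*, an immediate early gene, had 134 and 136 with an interval from -0.47 to 0.55, so a change of the 1.5-fold size lay outside it. *Hnf4g*, the relative of *Hnf4a*, was under the minimum at 15.7 and 19.6.

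Of the 5 coregulators, *Ncoa3* stood apart from the rest without reaching the limit. *Ncoa3* encodes the p160 coactivator SRC-3 and lies on chromosome 2 from 165992636 to 166073242. It had 1294 normalized reads in the control and 947 in the iFIRKO liver, which is 1.37-fold lower, or -0.45 on the log2 scale (interval -0.63 to -0.28). The other p160 genes, *Ncoa1* (797 and 831) and *Ncoa2* (1831 and 1691), had intervals that included 0. *Ncoa3* accordingly went from 43.8% to 36.9% of the reads per kilobase of the 3, and their sum had a log2 ratio of -0.18. *Ncor1*, the corepressor that recruits histone deacetylase 3, had 3582 and 3509. *Nrip1*, which encodes the ligand-dependent corepressor RIP140, had 751 and 797, and both intervals included 0.

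Promoters were examined because receptors of the commonest P-box type read the half-site AGGTCA. RefSeq promoters on GRCm38.p6, from 250 bases before to 50 after a start, were found for 30 of the 35 genes, 51 promoters in all, and not for *Thra*, *Ncoa2*, *Nr3c1*, *Ncoa3* and *Hnf4g*. AGGTCA occurred on either strand in 9 of these 51 (17.6%) and in 16.3% of all 32851 promoters. By gene, 8 of the 30 had a match, where 18.1% of all 27025 genes with a promoter did. The shares by gene are not corrected for the number of promoters, which was 51 for these 30 genes and 32851 for all. *Nr5a2*, *Nr6a1*, *Rara*, *Rxra*, *Rxrg* and *Thrb* had a match and were not called. The windows below are those of the members past the 1.5-fold limit, with the half-site in capitals.
Pparg, chr6:115361109-115361128, forward strand: ccgcctcAGGTCAgagtcgc
Pparg, chr6:115362333-115362352, forward strand: cgcgaggAGGTCAagaaggg
Rarg, chr15:102257735-102257754, forward strand: ctggcagAGGTCAgtgtcct
The first *Pparg* match begins 28 bases before its start and the second 9 bases before another start of the gene. The *Rarg* match lies on the strand opposite to the gene, 225 bases before the start. Neither the half-site repeated after 1 base (AGGTCANAGGTCA) or after 4 bases (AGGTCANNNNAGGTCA), nor the glucocorticoid type palindrome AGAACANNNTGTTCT, occurred in these 51 promoters. They occurred in 0.0396%, 0.0152% and 0.00913% of all promoters. The retinoic acid type repeat with a spacer of 5 was searched as GTTCANNNNNAGTTCA, the letters of the known *Rarb* element rather than of AGGTCA. It was found in 1 of the 51, that of *Rarb*, and in 0.0335% of all promoters. The *Rarb* match was therefore fixed in advance, and these shares cannot be compared.
Rarb, chr14:16575506-16575535, reverse strand: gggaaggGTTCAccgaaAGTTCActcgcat
*Rarb* is a textbook target of the receptors it belongs to, and this repeat begins 52 bases before a start of the gene. Its level was 337 and 362 normalized reads, beside the lower *Rarg*. A match is a description of letters, and binding was not measured.

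The remaining genes of the family were read from lists written for comparison. Of each list, the gene with the most normalized reads in control is also given, a count that is not corrected for length. Of 19 other nuclear receptor genes, 10 reached the minimum, and 2 of these were called lower and 0 higher, with a median log2 fold change of -0.24. *Nr0b2* encodes SHP, a receptor without a DNA-binding domain that represses LRH-1 and HNF4A. It had 1480 normalized reads in the control and 861 in the iFIRKO liver, that is, -0.78 on the log2 scale (interval -0.96 to -0.61). *Esrrb* was called lower from few reads, 55.8 and 18.1, and reached the minimum in the control library alone. Without it, 1 of 9 was lower and the median was -0.22. *Nr1h4*, the bile acid receptor FXR, had the most reads of these, 6200 and 7096, or 0.19 on the log2 scale. Of 22 other coregulators all reached the minimum, 0 were called in either direction, and the median was 0.0075. *Ncoa4*, with the most reads, had 4403 and 4556. By value 13 of the 22 were higher and 9 lower. Among the lower were the PGC-1 genes *Ppargc1a* (557 and 411) and *Ppargc1b* (165 and 122), named after their values were seen. Both had a log2 fold change of -0.43, near that of *Ncoa3*. The interval of *Ppargc1a* lay below 0 (-0.71 to -0.17), and that of *Ppargc1b* included 0.

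Genes that supply or remove ligands were called in both directions. Of 16 such genes at or over the minimum, 2 were called higher and 2 lower, with a median of 0.00040. *Cyp26b1*, which breaks down retinoic acid, had 89.4 normalized reads in the control and 370.2 in the iFIRKO liver, which is 4.14-fold higher (log2 interval 1.57 to 2.55). Its relative *Cyp26a1*, named after its value was seen, had more reads and was not called. It had 2670 in control and 2397 in iFIRKO, or -0.16 on the log2 scale (interval -0.27 to -0.042). *Aldh1a1*, which makes retinoic acid, was the other one called higher and had 42037 and 65602, or 0.64 on the log2 scale. The oxysterol and bile acid enzymes *Cyp7b1* (7069 and 3409) and *Cyp27a1* (22578 and 13527) were lower, with log2 fold changes of -1.05 and -0.74. *Ttr*, a plasma carrier of thyroid hormone, had the most reads, 203980 and 249350, and was not called.

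Known targets were read by receptor, on lists that share genes with the ligand list and with each other. A gene may serve receptors besides that of its list, so counts by receptor depend on where genes were placed. *Nr0b2*, called lower above, was counted with the other receptors and is on no target list. Of 74 target genes at or over the minimum, each taken once, 11 were called higher and 8 lower, which is 14.9% and 10.8% beside 4.46% and 7.28% of all genes compared. With the minimum met in both libraries it was 9 higher and 8 lower of 72, beside 3.42% and 5.57% of the 12765 genes that met it. The lists were chosen with earlier results of these data known, so these shares are a description only. The PPARγ list had a median of 1.17 over 6 genes, with 4 called higher and 1 lower. Of these, *Mogat1* and *Cidec* reached the minimum through the iFIRKO library alone, so their calls follow in part from the filter. With the minimum met in both libraries, 4 genes were left, of which 2 were higher and 1 lower, with a median of 0.45. *Mogat1*, a monoacylglycerol acyltransferase, went from 11.9 to 125.9 normalized reads, that is, 3.02 on the log2 scale (interval 2.21 to 4.91). *Cidec*, a lipid droplet protein, went from 17.9 to 108.4, that is, 2.35 on the log2 scale (interval 1.57 to 3.81). With a pseudocount of a CPM of 1, *Mogat1* fell to 1.64 and *Cidec* to 1.33 on the log2 scale. *Plin4*, a lipid droplet coat protein, had 698 and 1883, and *Cd36*, a fatty acid transporter, 2635 and 4955, with log2 fold changes of 1.43 and 0.91. *Lpl*, named after its value was seen, was the exception, called lower at 1564 and 1029, and *Fabp4* was level. These genes also serve other fatty acid receptors and cell types, so the list does not measure PPARγ alone.

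The targets of PPARδ and of PPARs in general had a median of 0.31 over 6 genes, with *Plin2* (13686 and 22423, log2 fold change 0.71) called higher and 0 called lower. *Acadvl*, a mitochondrial acyl-CoA dehydrogenase and the gene with the most reads in control, had 13953 and 16953 and was not called. For the LXR targets the direction was opposite in value. All 8 had a negative log2 fold change, with a median of -0.31, and 2 were called lower, the sterol transporter genes *Abcg8* (1418 and 709, log2 fold change -0.996) and *Abcg1* (372 and 207, -0.83). *Srebf1*, with the most reads, had 12113 and 10721. *Nr1h3* and *Nr1h2* themselves were level, as given above.

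CAR and PXR targets stood on both sides of 0, with 2 of 10 called higher, 3 lower and a median of -0.45. *Cyp2b10*, the classic CAR target, had 5755 normalized reads in the control and 3346 in the iFIRKO liver, that is, -0.78 on the log2 scale (interval -0.87 to -0.69). *Akr1b7* (157 and 45.3) and *Gadd45b* (549 and 235.3) were also lower, with log2 fold changes of -1.70 and -1.21. *Alas1*, the first enzyme of heme synthesis, was higher at 9983 and 19261, or 0.95 on the log2 scale, as was *Cyp2c55* (147 and 237.9), named after its value was seen. *Cyp3a11*, the classic PXR target, was level at 233166 and 240410.

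Thyroid hormone receptor targets had a median of 0.31 over 7 genes, with *Me1*, malic enzyme, called higher at 6884 and 17594 (log2 fold change 1.35) and *Gpd2* at 1288 and 2227 (0.79). *Thrsp*, with the most reads, had 27929 and 37922 and was not called. Of 4 retinoic acid receptor targets at or over the minimum, *Cyp26b1* was called higher, as given above, and 0 lower. The other 3 were lower in value, and the median was -0.094. *Tgm2*, with the most reads in control, had 10408 and 10180. None of 12 glucocorticoid receptor targets was called, with a median of 0.052. *Pck1*, with the most reads of these, had 137023 and 99529, or -0.46 on the log2 scale. The 3 vitamin D receptor targets, *Cyp24a1*, *Trpv6* and *S100g*, were listed at 0 in both libraries, as *Vdr* was in control.

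The targets of the oestrogen-related receptors were higher in value but not called. All 8 had a positive log2 fold change, from 0.047 to 0.52 with a median of 0.23. *Atp5b*, with the most reads, had 45097 and 46577. HNF4A targets had a median of 0.21 over 8 genes with 1 called higher, *Apoc3* (31647 and 48182, log2 fold change 0.61). By value 6 of the 8 were higher and 2 lower. *Apoa1* was counted with the hepatocyte markers and not here. It was called lower at 168382 and 87600, or -0.94 on the log2 scale. Of 5 LRH-1 targets, 2 were called lower, *Cyp7a1*, the rate-limiting enzyme of bile acid synthesis (6698 and 4351, log2 fold change -0.62), and *Scarb1*, the HDL receptor (6672 and 4267, -0.64). *Cyp8b1*, with the most reads, had 16126 and 19288 and was not called.

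**Figure D4:**
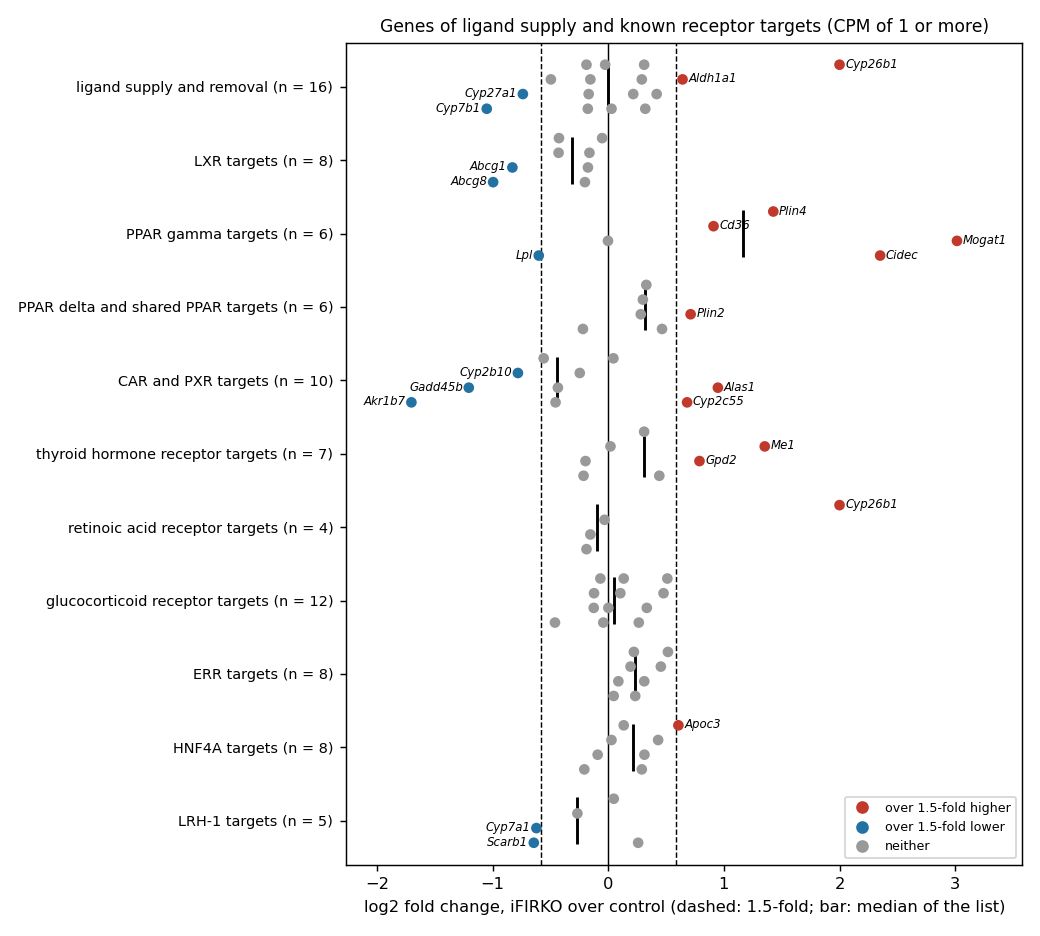
log2 fold change (iFIRKO over control) of genes of ligand supply and of known targets at a CPM of 1 or more, 1 point per gene and 1 row per list, with the list median as a bar and the 1.5-fold limits dashed. All 8 LXR points lie left of 0 and all 8 ERR points right of it. *Mogat1* at 3.02 and *Cidec* at 2.35 in the PPARγ row were under the minimum in the control library. Some genes stand in more than 1 row.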

How the data were processed

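Liver mRNA of 1 control and 1 iFIRKO library was analysed. The authors deposited log2 normalized read counts by gene symbol, where a value of 0 means that the scaled count was at most 1. The submitters' processing notes name mm10, while the aligner, counter, annotation and handling of multi-mapping reads are not given in the sources used here. Values were returned to the linear scale without further normalization. The commonest low value, 1.99 normalized reads in control and 2.01 in iFIRKO, was taken as 1 read pair. Only 47.7% and 47.4% of values under 10 pairs were then whole (within 0.01 pair), so depths are estimates and no count test across genes was run. The intervals treat values rounded to whole pairs as binomial counts and are approximate for that reason. No fold change was formed where a library had 3 or fewer read pairs. No p-value was computed, because each group has 1 library.

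Positions, exon lengths, overlaps and coding sequences came from GENCODE M21 (GRCm38), which is not stated to be the authors' annotation, and promoters from RefSeq. The members and gene lists were chosen with earlier results of these data known. All 35 members are named, and of each other list up to 4 genes past 1.5-fold with the largest change and the gene with the most reads in control. *Lpl*, *Ppara*, *Cyp2c55*, *Cyp26a1*, *Ppargc1a*, *Ppargc1b*, *Fabp4*, *Insr*, the adipocyte markers and genes overlapping a member were named besides, with their values known. Of the comparison lists, 2 genes are not reported here and were left out of the counts, medians and plots. The calling script was tested on simulated data. Alternatives changed the pseudocount, minimum, scaling, fold limit and duplicate symbols. Computation ran in Python (3.11.15) with scipy (1.17.1), numpy (2.4.6) and pandas (2.3.3), and plots in matplotlib (3.10.9).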

Additional observations from a re-analysis of the deposited data

How the results depend on the processing

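*Pparg* was the 1 member called higher and *Rarg* was called lower under every alternative except a fold limit of 2, which left 0 higher and 0 lower members. The number of lower members was 2 without a pseudocount, where *Esrrg* joined, and 2 without an expression minimum, where *Nr2f1* joined from 14 and 6 read pairs. The median log2 fold change of the members lay between -0.057 and -0.042 in all settings. The scalings shifted the libraries by at most 0.012 on the log2 scale. Among 80 genes examined singly, 6 moved outside their counting interval in some setting, 0 of them members (*Ttr*, *Mogat1*, *Cidec*, *Cyp3a11*, *Alb* and *Cd79a*), and 0 called values changed sign. Over all genes the count of 597 higher and 976 lower became 371 and 576 with a pseudocount of a CPM of 1, 1960 and 2620 without a minimum, 288 and 440 with a minimum CPM of 5, and 209 and 267 with a fold limit of 2. No paired analysis was possible because there is 1 library in each group. Variation between mice is unknown, and counting error is widest for *Esrrg*, *Nr4a1* and the members under the minimum.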
